A study of Mus musculus with 4 samples.

Results

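Cytosolic ribosomal protein genes encode the protein subunits of the ribosomes that translate nuclear messages. They were chosen by name: symbols made of Rpl or Rps and a number, with the usual letter endings, plus Rplp0, Rplp1, Rplp2 and Rpsa, without genes named as pseudogenes and without the Rps6 kinases. The rule found 86 genes among the 29161 rows of the count table, 51 of the large subunit and 35 of the small subunit. GENCODE M21 lists 81 of them as protein coding and 5 (Rps3a2, Rps3a3, Rpl6l, Rpl32l and Rps4l) as processed pseudogenes, intronless copies made from a message. Rpl3l and Rpl10l were not analysed here.

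The cells came from enteroids, mini-guts grown from intestinal crypts, of female CD1 mice that carried a Neurog3eYFP reporter allele and a normal Neurog3 allele (Neurog3eYFP/+). All cells share that genotype, the culture medium with R-spondin-1, EGF and noggin, and a sort for living eYFP-positive cells into single wells. The mouse age was 39 weeks for duodenum replicate 1 and 12 weeks for duodenum replicates 2 and 3 and jejunum replicate 1. In that order they have 72, 83, 72 and 63 cells in the table (290 in all). These 4 plates are the replicates, and p-values measure the spread between them. The labels do not say how many mice made up a plate. Sort date and litter are not given.

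Ribosomal proteins are made in near-equal numbers because each ribosome holds about the same set. Their messages make up a large part of the messages of growing and dividing cells, and the start of the message, a C followed by a run of C or U, is the element through which mTOR signalling controls how well these messages are translated. In the intestinal epithelium, endocrine cells arise from dividing progenitors that pass through a short Neurog3 phase and then stop dividing and fill with secretory granules. Chgb encodes the granule protein chromogranin B, Tph1 makes serotonin in enterochromaffin cells, and the peptide hormone genes used here were Gip, Gcg, Cck, Sst, Nts, Pyy, Ghrl and Insl5.

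The first bases of a message are shown for a few members with and without a run of C and T, because the start of the message is the sequence feature by which this family is known. Starts were found in RefSeq (GRCm38.p6) for 62 of the 86 members. Each line gives the 10 bases before the annotated start and the first 20 bases from it, 5′ to 3′, and capitals mark a C followed by at least 4 bases that were each C or T, where such a run began within 5 bases of the start.
Rpl35 (chr2:39005112-39005141, minus strand): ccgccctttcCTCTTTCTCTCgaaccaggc
Rpl15 (chr14:18270967-18270996, minus strand): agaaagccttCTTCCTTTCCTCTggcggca
Rps18 (chr17:33955646-33955675, minus strand): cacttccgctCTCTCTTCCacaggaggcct
Rps6 (chr4:86857348-86857377, minus strand): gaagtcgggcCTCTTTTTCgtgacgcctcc
Rps27 (chr3:90213629-90213658, minus strand): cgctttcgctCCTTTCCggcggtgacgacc
Rplp2 (chr7:141447641-141447670, plus strand): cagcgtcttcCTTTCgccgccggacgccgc
Rpl12 (chr2:32961702-32961731, plus strand): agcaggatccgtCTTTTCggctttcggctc
Rpl22l1 (chr3:28805498-28805527, plus strand): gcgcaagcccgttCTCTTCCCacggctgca
Rps4x (chrX:102189372-102189401, minus strand): gctgggcggagcaacccaggctccagcgcg
Rplp0 (chr5:115559457-115559486, plus strand): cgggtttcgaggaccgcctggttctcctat
Rpl7l1 (chr17:46782637-46782666, minus strand): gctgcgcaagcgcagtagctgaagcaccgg

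In the first 6 of these the run began at the annotated start itself. It did so in 14 of the 62 members with a start (22.6%), against 3.01% of the 27025 genes in the table of starts, and it began within 5 bases in 30 members (48.4%) against 21.2% of all genes. In Rps4x, Rplp0 and Rpl7l1 no such run began within 5 bases of the start, which says only that these letters are not at those positions of the annotated start. In the 300 bases around the start, on either strand, CCGGAAG was in 41.9% of members and 9.93% of all genes, AAGATGG in 16.1% and 7.28%, CACGTG in 9.68% and 8.09%, and TATAAA in 12.9% and 15.7%. These searches use windows of equal length and do not show that a factor binds.

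The members together held 15.6%, 18.2% and 23.5% of all counts in duodenum replicates 1, 2 and 3 and 13.4% in the jejunum. The large subunit genes held 7.68%, 9.42%, 12.2% and 6.91% in that order of plates, and the small subunit genes held 7.96%, 8.82%, 11.3% and 6.54%. Both subunits were thus lowest in the jejunum plate and highest in duodenum replicate 3. Between single cells the share ran from 4.35% to 30.5% with a median of 16.7% in duodenum replicate 1, from 2.34% to 43.0% with a median of 14.3% in replicate 2, from 4.30% to 47.5% with a median of 20.4% in replicate 3, and from 3.24% to 37.0% with a median of 10.1% in the jejunum. At least 20% of the counts were ribosomal protein messages in 30, 31, 37 and 15 cells, and under 10% were in 27, 30, 9 and 30 cells. Plates held 23893272 to 46490618 counts.

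Across the cells of a plate, the share was lower where Chgb was higher (in CPM, counts scaled to a total of 1000000), with Spearman correlations of -0.73, -0.86, -0.76 and -0.72 over 72, 83, 72 and 63 cells. The correlation with the total count of a cell was -0.19, -0.22, -0.02 and -0.24, and that with the mitochondrial share was 0.75, 0.72, 0.50 and 0.47. These are descriptions over cells that share a plate and a total count, and carry no test.

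**Figure D1:**
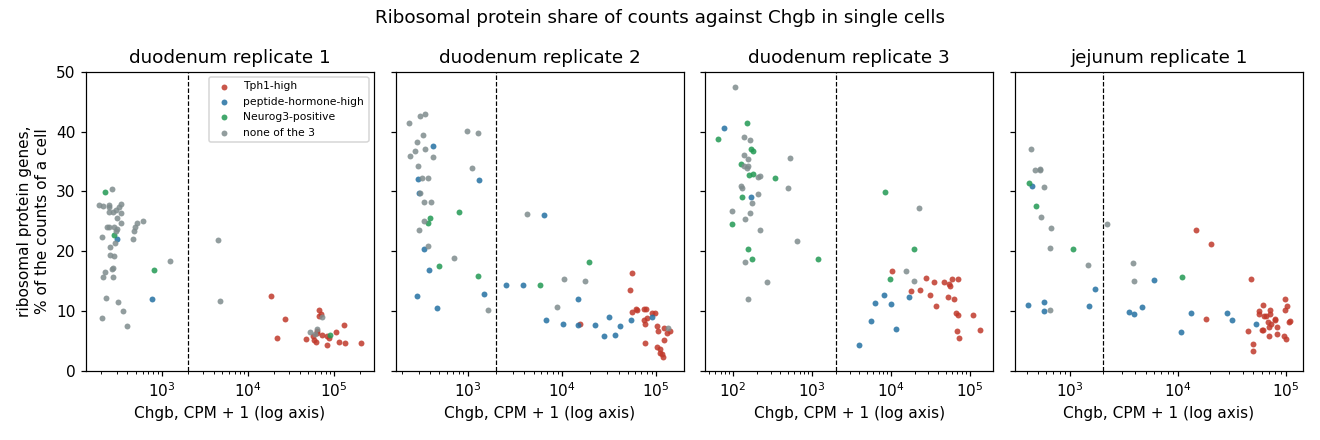
Share of the counts of each cell in the 86 ribosomal protein genes (vertical, %) against Chgb (horizontal, CPM + 1, log axis), 1 point per cell and 1 panel per plate. The dashed line is at the limit of 2000 CPM; a cell in several classes is coloured as Tph1-high first, then peptide-hormone-high, then Neurog3-positive. Cells left of the line reach shares of 30.5% to 47.5%, and the red Tph1-high cells lie between 2.34% and 23.6%.

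Single members differed in how many cells showed them. A count was found in all 290 cells for 60 members and in at least 280 cells for 77. The 5 members with the most counts were Rpl23, Rps14, Rps21, Rplp1 and Rplp2. Rpl23, a large subunit protein, had 5144, 8655, 11991 and 4990 CPM in duodenum replicates 1, 2 and 3 and the jejunum, and Rps14, of the small subunit, had 5292, 8537, 10483 and 5155 CPM. Rps21, also of the small subunit, had 6252, 6930, 8985 and 4464 CPM. The first 2 were highest in duodenum replicate 3 and similar in duodenum replicate 1 and the jejunum. At the other end, Rpl39l, the copy of Rpl39 known from testis, had 4 counts in all, Rps4l had 104 counts in 2 cells, Rpl24 had 749 in 125 cells, Rpl6l had 1410 and Rpl32l had 4416. Rpl24 is a core large subunit protein, and its level of 1.86 to 8.82 CPM stands beside 278 rows named as ribosomal protein pseudogenes in the table. Those pseudogene rows held 0.340% to 0.603% of all counts, or 2.15 to 3.23 counts per 100 counts of the members, a sum over the family that does not bound the error of a single gene. Reads of near-identical copies can have been divided between rows, and the levels of single genes with such copies are uncertain by an amount that was not measured.

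Cells with little Chgb (under 2000 CPM, 139 cells) were compared with the remaining cells (151 cells). This comparison asks how the family differs between cells with less and with more of this granule message. The ribosomal protein share was higher in the Chgb-low cells of every plate. It was 21.8% against 7.17% in duodenum replicate 1, 29.3% against 9.32% in replicate 2, 30.8% against 13.3% in replicate 3 and 24.1% against 10.1% in the jejunum. These are ratios of 3.04, 3.15, 2.32 and 2.37, a median log2 ratio of 1.42, and the Chgb-low shares of the plates did not overlap the Chgb-high shares. Single cells did overlap: Chgb-low cells ranged from 7.51% to 47.5% and Chgb-high cells from 2.34% to 29.9%. The balance of the subunits stayed close, with a large to small subunit ratio of 0.967, 1.07, 1.08 and 1.05 in Chgb-low cells and 0.953, 1.07, 1.05 and 1.06 in Chgb-high cells. A share of counts does not tell more ribosomal protein RNA per cell from less of other RNA.

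**Figure D2:**
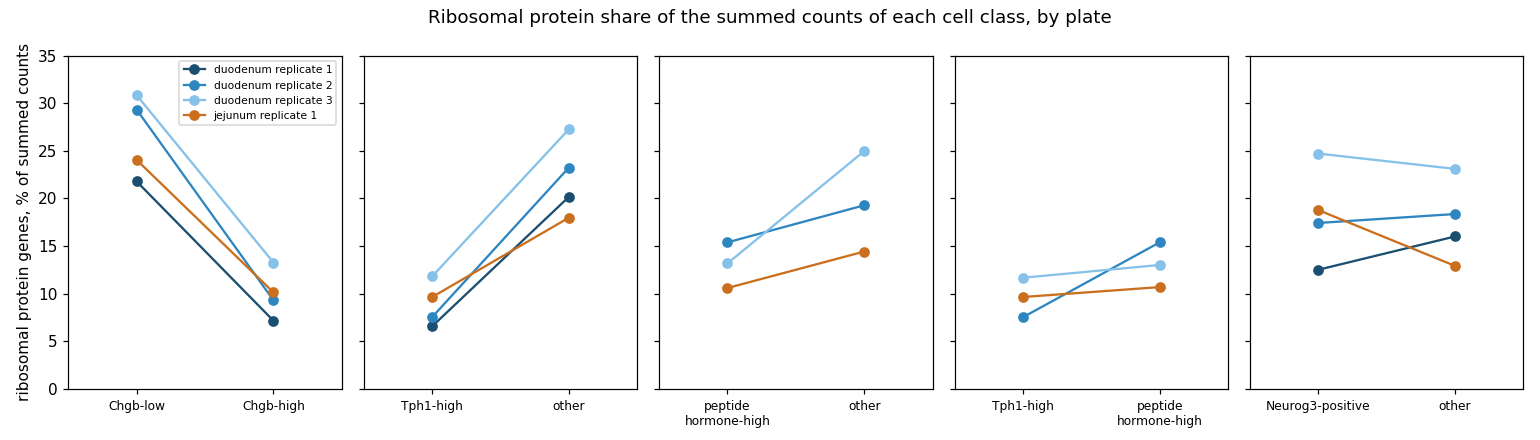
Share of the summed counts of a cell class in ribosomal protein genes (vertical, %) for the 5 class comparisons, with 1 line per plate joining the 2 classes of that plate. All 4 lines fall from Chgb-low to Chgb-high and rise from Tph1-high to other cells, whereas the Neurog3 lines go in both directions (12.5% against 16.0% in duodenum replicate 1, 18.8% against 12.9% in the jejunum).

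Gene by gene, edgeR's quasi-likelihood test on counts summed per plate and class found 79 of the 84 members that passed the filter on low counts higher in Chgb-low cells and 0 lower, at a Benjamini-Hochberg adjusted p under 0.05 over all 12679 genes tested. Of all genes tested, 2.48% were higher and 1.5% were lower. The median log2 fold change was 1.80 over the members, from 0.07 to 2.58, and -0.08 over all genes. All genes include the members, and the fold changes are relative to a scaling (TMM) that centres most genes near 0. Scaled by total counts alone, the median over all genes moved to -0.49 and that over the members to 1.39, and 75 members were higher. Of the 86 members, 81 were higher in all 4 plates.

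Rpl39, a small protein at the exit tunnel of the large subunit, had the largest change. It was at 1994, 2303, 3543 and 2564 CPM in the Chgb-low cells of duodenum replicates 1, 2 and 3 and the jejunum, and at 292, 447, 1034 and 749 CPM in the Chgb-high cells. The plates of the classes did not overlap, and the log2 fold change was 2.58 ± 0.21 (SE, 4 plates; edgeR adjusted p = 0.00409). Rpl12, at the base of the stalk of the large subunit, was at 5256, 8425, 10512 and 6299 CPM against 899, 1884, 3453 and 1770 CPM, a log2 fold change of 2.44 ± 0.17. For Rps19, a small subunit protein best known as the gene most often mutated in Diamond-Blackfan anaemia, the values were 2157, 4078, 2036 and 1271 CPM against 487, 904, 572 and 367 CPM, and the log2 fold change was 2.39 ± 0.15. Rps4x, the X-linked small subunit gene, had 2822, 4714, 4722 and 3799 CPM against 509, 1105, 1591 and 1113 CPM, with a log2 fold change of 2.38 ± 0.17. None of these 4 genes had overlapping classes. Rpl35 and Rpl36a were at 2.15 and 2.13.

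The stalk of the large subunit, which recruits the translation factors, is built from Rplp0, Rplp1 and Rplp2, and all 3 rose. Rplp0 was at 2964, 1980, 2085 and 2298 CPM in Chgb-low cells and at 572, 518, 748 and 714 CPM in Chgb-high cells, a log2 fold change of 2.27 ± 0.17. Rplp1 was at 8535, 8459, 10465 and 8623 CPM against 1707, 2537, 3476 and 3929 CPM (2.10 ± 0.22). Rplp2 was at 6431, 8173, 9269 and 6675 CPM against 2550, 2539, 4218 and 3484 CPM (1.68 ± 0.17). In each plate the ratio of the classes was larger for Rplp0 than for Rplp2. Rpsa, a small subunit protein also described as a laminin receptor, was at 2445, 2011, 3054 and 1715 CPM against 757, 702, 1049 and 787 CPM (1.87 ± 0.17). The edgeR adjusted p of these 4 genes lay between 0.00367 and 0.00739.

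Several members have a like-named partner, and not every partner was called. Rpl7 was at 1379, 1523, 1167 and 1400 CPM in Chgb-low cells and at 423, 482, 473 and 482 CPM in Chgb-high cells (1.96 ± 0.14, edgeR adjusted p = 0.00367). Its partner Rpl7l1 was at 28.6, 65.2, 28.6 and 30.5 CPM against 18.0, 66.1, 55.0 and 63.2 CPM, higher in 1 plate of 4, and its change of 0.07 ± 0.43 on the log2 scale had an edgeR adjusted p of 0.952. Rpl22 rose by 1.75 ± 0.16, from 445, 577, 814 and 581 CPM to 1051, 1727, 2035 and 1377 CPM. Its partner Rpl22l1 was at 10.1, 39.4, 88.2 and 38.9 CPM against 6.97, 36.8, 50.6 and 39.1 CPM, which is 0.76 ± 0.38 on the log2 scale with an edgeR adjusted p of 0.314. The difference between partners was not tested. A count of Rpl7l1 was found in 134 of the 290 cells and of Rpl22l1 in 208, so their levels rest on fewer counts (7160 and 6215) than those of most members.

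Rps27 (2534, 2229, 3344 and 4185 CPM against 855, 661, 1417 and 1566 CPM) rose by 1.90 ± 0.14. Rps27a, which is made as a fusion with ubiquitin, was at 1587, 2194, 2614 and 2105 CPM against 435, 744, 1294 and 947 CPM (1.80 ± 0.18). Rps27l, a partner of Rps27 known as a p53 target, was at 247, 434, 372 and 373 CPM against 106, 201, 249 and 182 CPM (1.39 ± 0.17), and its change was among the 4 smallest of those that passed, with Rpl19 (1.34), Rpl4 (1.37) and Rpl26 (1.38). The members that did not pass were Rpl7l1, Rpl22l1, Rpl24, Rpl6l and Rpl32l, the last at 18.9, 105, 38.5 and 18.6 CPM against 3.38, 29.1, 19.5 and 9.93 CPM (1.95 ± 0.49, edgeR adjusted p = 0.0975). Rpl39l and Rps4l did not pass the filter on low counts. The 30 members with a run of C and T that began within 5 bases of the start had a median log2 fold change of 1.86, and the 31 tested members with a start and no such run had 1.77.

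**Figure D3:**
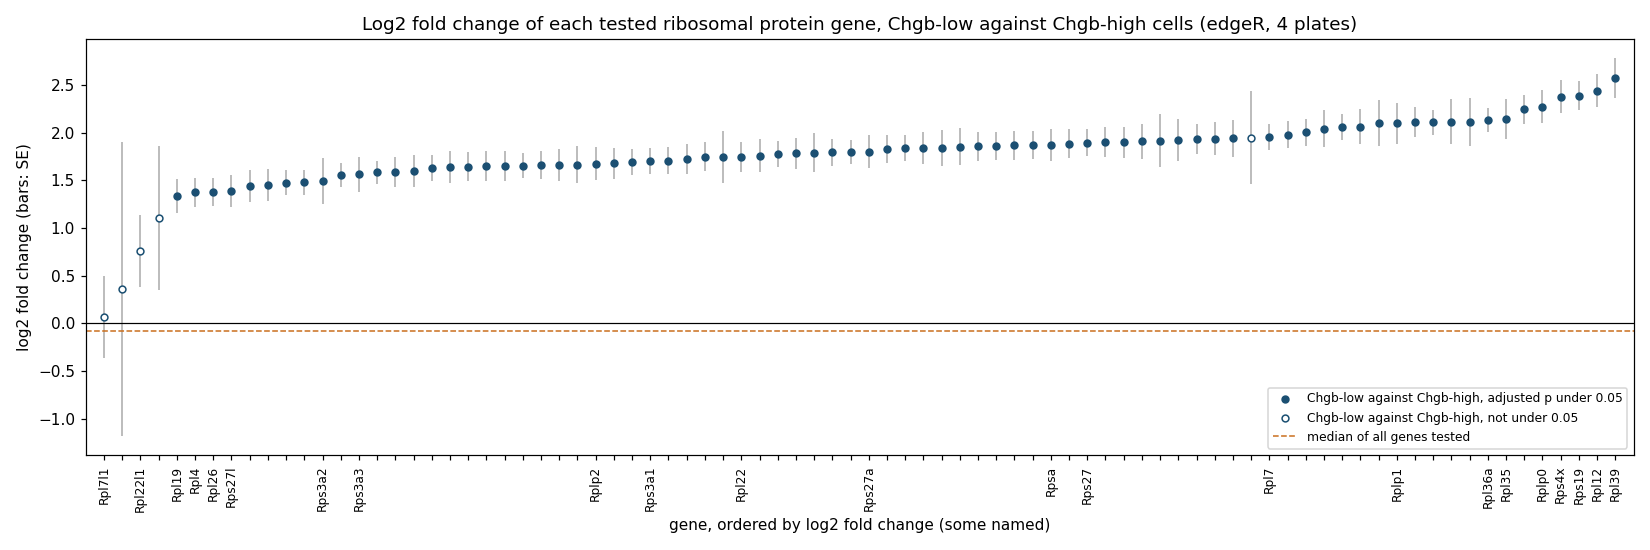
Log2 fold change of each of the 84 tested ribosomal protein genes between Chgb-low and Chgb-high cells (vertical; bars are SE, 4 plates per class), ordered by size and named for some of the genes described in the text, with filled points for the 79 at an edgeR adjusted p under 0.05. The dashed line is the median of all genes tested, -0.08; Rpl7l1 (0.07) is the lowest member and Rpl39 (2.58) the highest.

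Other genes of the translation machinery were tested in the same fit. In a list of 23 elongation factors, initiation factors and related genes, 12 were higher in Chgb-low cells and 0 lower, with a median log2 fold change of 1.16. Eef1b2, an exchange factor of elongation factor 1, was at 3593, 7608, 6651 and 5467 CPM against 803, 1453, 2027 and 1229 CPM (2.51 ± 0.15). Rack1, a scaffold protein of the small subunit, rose by 2.13 ± 0.22, and Eef1g and Eef1a1 rose by 1.99 ± 0.19 and 1.89 ± 0.17. Fau, whose product includes a small subunit protein, rose by 1.26 ± 0.15, and Eef2, the translocation factor, was at 0.60 ± 0.12 (edgeR adjusted p = 0.0584). Of 37 tested ribosome biogenesis genes, Polr1c, of RNA polymerases I and III, and Npm1, the nucleolar chaperone, were higher (1.95 ± 0.23 and 1.60 ± 0.21), 0 were lower, and the median was 0.40. Of 75 tested mitochondrial ribosomal protein genes 0 were called by edgeR, with 18 at an unadjusted p under 0.05 and a median of 0.57. The share of all genes at that p is not given here, so the 18 are not read as a result about these genes.

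Other values moved with the Chgb classes. The 8 goblet markers, which mark mucus cells, summed to 17833 to 24251 CPM in Chgb-low cells and 828 to 1510 CPM in Chgb-high cells. For the 8 Paneth markers the sums were 3135 to 13579 CPM against 328 to 1056 CPM, and for the 12 stem and proliferation markers 466 to 780 CPM against 301 to 406 CPM. The 8 endocrine markers, Chgb among them, summed to 540 to 3048 CPM against 45068 to 75558 CPM. Clca1, Spdef or Zg16 among the goblet markers and Pla2g2a among the Paneth markers were at 0 in the Chgb-low cells of some plates, and 3 immune markers stayed at or under 1.27 CPM. The mitochondrial share was 7.95%, 5.90%, 10.4% and 8.51% in Chgb-low cells and 3.98%, 3.38%, 6.43% and 4.92% in Chgb-high cells, and the median cell held 304878, 378663, 417678 and 607471 counts against 360757, 461912, 455006 and 786629. Goblet or Paneth markers reached 5000 CPM in 102 of the 139 Chgb-low cells and in 13 of the 151 Chgb-high cells. Without those cells the ribosomal protein share differed by a median log2 ratio of 1.28, and 64 of 84 members were higher by edgeR. The share of all genes called in that fit is not given here. Among Chgb-low cells, the share was 17.6%, 28.3%, 32.4% and 23.9% where those markers were under the limit and 22.4%, 29.7%, 30.0% and 24.1% where they were over it. The part of the mitochondrial share and of depth in the result was not tested.

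The number of members called depended on the plates used. It was 44, 52 and 47 without duodenum replicates 1, 2 and 3 and 77 without the jejunum, and 58 without the plate as a block. In these fits 0 members were lower and the median over the members was between 1.71 and 1.90. The share of all genes called in them is not given here.

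Cells with at least 200 CPM of Tph1 (97 cells) were compared with all other cells. Every Tph1-high cell was also Chgb-high, so this comparison shares most of its cells with the last and is no separate evidence. The ribosomal protein share was 6.57% in Tph1-high cells against 20.2% in other cells in duodenum replicate 1, 7.53% against 23.2% in replicate 2, 11.8% against 27.3% in replicate 3 and 9.65% against 18.0% in the jejunum. It was lower in every plate, and the Tph1-high plates did not overlap the others. By edgeR, 59 of 84 tested members were lower and 0 were higher. Of all 12836 genes tested, 1.16% were lower and 0.623% were higher. The median log2 fold change was -1.51 over the members and -0.15 over all genes, and 83 of 84 fitted values were negative.

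Rpl39 was at 230, 319, 805 and 711 CPM in the Tph1-high cells of duodenum replicates 1, 2 and 3 and the jejunum and at 1801, 1721, 3037 and 1739 CPM in other cells. The classes did not overlap, and it fell by 2.34 on the log2 scale (SE 0.32, 4 plates; edgeR adjusted p = 0.0379). Rps4x was at 444, 873, 1411 and 937 CPM against 2550, 3574, 4057 and 2722 CPM and fell by 2.08. Rps19 was at 462, 659, 463 and 352 CPM against 1949, 3094, 1733 and 856 CPM and fell by 2.06. In the stalk, Rplp0 was at 446, 362, 640 and 655 CPM against 2711, 1547, 1811 and 1610 CPM and fell by 2.06, and Rplp2 fell by 1.33. Rplp1, at 1525, 2448, 2716 and 3720 CPM against 7726, 6452, 9094 and 6623 CPM, was at -1.76 on the log2 scale and did not pass, with an edgeR adjusted p of 0.0555. Rpsa, Rps27, Rps27a, Rpl7 and Rpl22 fell by 1.52, 1.52, 1.60, 1.69 and 1.40. Rpl7l1, Rpl22l1 and Rps27l were at -0.65, -0.35 and -0.88 and did not pass. Also among the 8 largest changes were Rpl12 (-2.07), Rpl36a (-1.86) and Rpl35 (-1.85).

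Among other genes of translation, Eef1b2, Eef1g, Rack1 and Eef1a1 fell by 2.36, 1.81, 1.89 and 1.75 and were among 5 of 23 that were lower, with a median of -0.93 over the list. Of the ribosome biogenesis genes 1 of 37 was lower (Npm1, by 1.40), and of the mitochondrial ribosomal protein genes 0 of 75 were called, with 9 at an unadjusted p under 0.05. The share of all genes at that p is not given here, so the 9 are not read as a result about these genes.

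These calls lay near the threshold, with the smallest edgeR adjusted p of a member at 0.0198. The edgeR count was 0 of 84 without duodenum replicate 1, without replicate 2 or without replicate 3, and 62 without the jejunum. The median over the members was then -1.36, -1.44, -1.52 and -1.72. The share of all genes called in these fits is not given here. Within Chgb-high cells alone, Tph1-high cells had shares of 6.57%, 7.53%, 11.8% and 9.65% and the other Chgb-high cells 9.46%, 11.7%, 15.3% and 11.4%. The share was lower in Tph1-high cells in all 4 plates, a median log2 ratio of -0.45 in place of -1.41. By edgeR 0 of 84 members were called, with 47 at an unadjusted p under 0.05. The share of all genes at that p is not given here, so the 47 are not read as a result about the members. The goblet markers summed to 515 to 1131 CPM in Tph1-high cells and 13238 to 21234 CPM in the others, and the mitochondrial share was 3.81%, 3.25%, 6.72% and 5.41% against 7.52%, 5.09%, 9.36% and 6.20%. The part of these 2 measures in the result was not tested beyond the comparison within Chgb-high cells.

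At least 1 peptide hormone gene reached 1000 CPM in 52 cells. Those of duodenum replicates 2 and 3 and the jejunum (23, 10 and 16 cells) were compared with all other cells of these plates. Duodenum replicate 1 had 3 such cells and was left out. The ribosomal protein share was 15.4% against 19.3%, 13.2% against 25.0% and 10.6% against 14.4%. It was lower in the hormone cells of all 3 plates, but the classes overlapped across plates. The medians over cells were 12.1% against 15.7%, 11.8% against 24.1% and 9.91% against 10.2%, so nearly equal in the jejunum. The mitochondrial share was also lower in the hormone cells of all 3 plates, at 3.79% against 4.77%, 5.81% against 9.13% and 4.76% against 6.12%, and its part in the result was not tested. By edgeR 0 of 84 tested members were called, with 23 at an unadjusted p under 0.05, and DESeq2 called 0. Of all genes tested, 0.0228% were higher and 0% were lower at the adjusted threshold. The share of all genes at that unadjusted p is not given here, so the 23 are not read as a result about the members. The median over the members was -0.58 and over all genes -0.35, and all 84 fitted values were negative.

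The member of smallest p was Rpl13a, a large subunit protein, at 55.2, 134 and 71.2 CPM in hormone cells and 113, 232 and 177 CPM in other cells, which is -1.07 ± 0.28 on the log2 scale with an edgeR adjusted p of 0.438. Among the next were Rpl22, Rpl12 and Rplp1, at -0.76, -0.95 and -0.88 with edgeR adjusted p between 0.438 and 0.467. Their hormone-cell values were below those of the other cells in all 3 plates. Among all hormone cells, 19 were Chgb-low, 2 of them in the plate left out. The share in the Chgb-low hormone cells of the 3 plates used was 23.3%, 35.3% and 15.2% (9, 2 and 6 cells). Of the 33 hormone cells with more Chgb, 1 was in the plate left out. The others had 10.8%, 9.98% and 8.97% in the same 3 plates (14, 8 and 10 cells). In hormone cells the share thus also differed with the Chgb level in every plate, without a test.

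Set directly against the hormone cells, Tph1-high cells had shares of 7.53% against 15.4% in duodenum replicate 2, 11.7% against 13.0% in replicate 3 and 9.66% against 10.7% in the jejunum. Cells in both classes (3 in all) were left out. The share of summed counts was lower in Tph1-high cells in each of these plates, and outside duodenum replicate 2 the difference was small. The medians over cells were 7.78% against 12.1%, 12.7% against 11.4% and 8.44% against 10.0%. By that measure Tph1-high cells were higher in duodenum replicate 3, where the 9 hormone cells ranged from 4.30% to 40.7%. The mitochondrial share was 3.25% against 3.79%, 6.78% against 5.88% and 5.41% against 4.71%, lower in 1 plate and higher in 2. By edgeR 0 of 84 tested members were called, with 12 at an unadjusted p under 0.05, and DESeq2 called 0. Of all genes tested, 0.0606% were lower and 0.0519% were higher at the adjusted threshold. The share of all genes at that unadjusted p is not given here, so the 12 are not read as a result about the members. The median over the members was -0.46 and over all genes 0.15.

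Rpl14, a large subunit protein, had the smallest p, at 927, 870 and 824 CPM in Tph1-high cells and 1932, 1325 and 1262 CPM in hormone cells (-0.79 ± 0.21, edgeR adjusted p = 0.522). Rpl41, Rpl36a, Rpl30 and Rpl10a followed at -0.72, -0.81, -0.81 and -0.82. These 5 genes were lower in the Tph1-high cells of all 3 plates. Rpsa was at 705, 924 and 690 CPM against 986, 910 and 670 CPM, with no common direction. The 8 enterochromaffin markers summed to 11215 to 17725 CPM in Tph1-high cells and 1429 to 2939 CPM in hormone cells. The cells were chosen by Tph1 and hormone level, so this sum describes the classes and does not test them.

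Cells with at least 5 counts of Neurog3 (50 cells: 7, 12 and 24 in duodenum replicates 1, 2 and 3 and 7 in the jejunum) were compared with all other cells. The ribosomal protein share was 12.5% against 16.0%, 17.4% against 18.4%, 24.7% against 23.1% and 18.8% against 12.9%. In summed counts it was lower in Neurog3-positive cells in duodenum replicates 1 and 2 and higher in replicate 3 and the jejunum, with ratios of 0.782, 0.949, 1.07 and 1.45. The medians over cells were 7.68% against 17.0%, 16.7% against 12.8%, 20.4% against 20.0% and 15.7% against 9.71%. By that measure Neurog3-positive cells were higher in duodenum replicate 2. The mitochondrial share of summed counts went the same way as the summed ribosomal protein share in each plate. It was 5.32% against 6.40%, 4.35% against 4.53%, 9.63% against 8.40% and 7.30% against 5.62%, and its part in the result was not tested. No fitted change of the 84 tested members passed: 0 by edgeR, 0 by DESeq2, and 0 at an unadjusted edgeR p under 0.05. Of all genes tested, 0% were higher and 0.0241% were lower. The median log2 fold change was 0.08 over the members and -0.55 over all genes.

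Rps28 had the smallest p of the members, at 1752, 1329, 1980 and 2591 CPM in Neurog3-positive cells and 1724, 1135, 1780 and 1405 CPM in other cells. It was higher in all 4 plates, by 0.37 ± 0.23 on the log2 scale (edgeR adjusted p = 0.809). Rps3, an entry-site protein of the small subunit, was at 0.22 ± 0.19, Rps3a1 at 0.23 ± 0.21, Rpl35a at 0.25 ± 0.23 and Rpl24, at 0 to 4.54 CPM in Neurog3-positive cells, at -2.34 ± 1.78. The 4 stalk and laminin receptor genes Rplp0, Rplp1, Rplp2 and Rpsa were at 0.03, -0.03, 0.12 and 0.07.

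The Neurog3-positive cells were also divided by Chgb, and their ribosomal protein shares are given without a test. The 24 that were Chgb-low had shares of 23.8%, 23.1%, 31.3% and 25.7% in duodenum replicates 1, 2 and 3 and the jejunum, and the 26 with more Chgb had 6.49%, 13.6%, 14.7% and 12.8%. Chgb-low cells under the Neurog3 limit had 21.7%, 30.2%, 30.7% and 23.7%. Among Chgb-low cells the Neurog3-positive share was above that of the others in 3 plates and below it in duodenum replicate 2, with 3, 5, 13 and 3 Neurog3-positive cells. The 17 Chgb-high cells in none of the 3 classes (6, 5, 3 and 3 cells) had 10.1%, 13.5%, 23.0% and 20.7%.

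The plates as wholes were compared by tissue and by age. With 1 jejunum plate against 3 of duodenum, and 1 plate of 39 weeks against 2 of 12 weeks, tissue or age cannot be told apart from animal, plate and library, nor from the mix of cell classes, since 44 of 72 cells were Chgb-low in duodenum replicate 1 and 19 of 63 in the jejunum. In sums over a plate, fewer cells of a type and less RNA per cell cannot be told apart. For the jejunum, edgeR called 0 of 85 tested members, with 1 at an unadjusted p under 0.05 (Rps19, at 582 CPM in the jejunum and 1455, 2319 and 1426 CPM in the duodenum), and DESeq2 called 0. The next members by p were Rpl23a, Rps3a3, Rpl32l and Rpl21, at -1.88, -4.28, -1.57 and -0.81 on the log2 scale. The value for Rps3a3 rests on duodenum replicate 1, at 947 CPM, since duodenum replicates 2 and 3 were at 14.9 and 28.5 CPM and the jejunum at 15.9 CPM. The median over the members was -0.50 and over all genes -0.27. Of all genes tested, 0% were called in either direction.

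For 39 against 12 weeks in the duodenum, the group of 39 weeks is 1 plate, so only effect sizes are given in this part. The median log2 fold change was -0.74 over the members and -0.27 over all genes. The 3 genes named for Rps3a, a small subunit protein, differed in the order of the plates. Rps3a3, an annotated processed pseudogene on chromosome 13 (chr13:108670603-108671397 in GRCm38), was at 947 CPM in duodenum replicate 1 and at 14.9, 28.5 and 15.9 CPM in replicates 2 and 3 and the jejunum. Rps3a1, the coding gene (chr3:86137940-86142702), was at 1226 CPM in duodenum replicate 1 and at 3920, 4819 and 2874 CPM in the others. Rps3a2, a second intronless copy, was at 20.3, 69.8, 129 and 78.3 CPM. The 3 summed to 2194, 4005, 4977 and 2968 CPM, so the sum was lowest in duodenum replicate 1. Within that plate, Rps3a3 was at 1318 CPM in Chgb-low and 437 CPM in Chgb-high cells, and Rps3a1 at 1672 and 613 CPM. Reads of these copies can be assigned to either gene, and which one they came from was not tested.

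Other members of low level in duodenum replicate 1 were Rpl35a (368 CPM against 2339 and 2832 in replicates 2 and 3), Rps6 (287 against 1454 and 1042), Rpl35 (431 against 1966 and 2837) and Rpl15 (129 against 1248 and 510). In the jejunum, these 4 genes were at 990, 380, 921 and 202 CPM, between the values of duodenum replicate 1 and those of the other 2 duodenum plates. Rplp0 went the other way, at 1958 CPM in duodenum replicate 1 and 1170, 1528 and 1090 CPM in the others. The order of the plates therefore differed from member to member, whereas the order of the Chgb classes was the same in all 4 plates for 81 of 86 members.

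**Figure D4:**
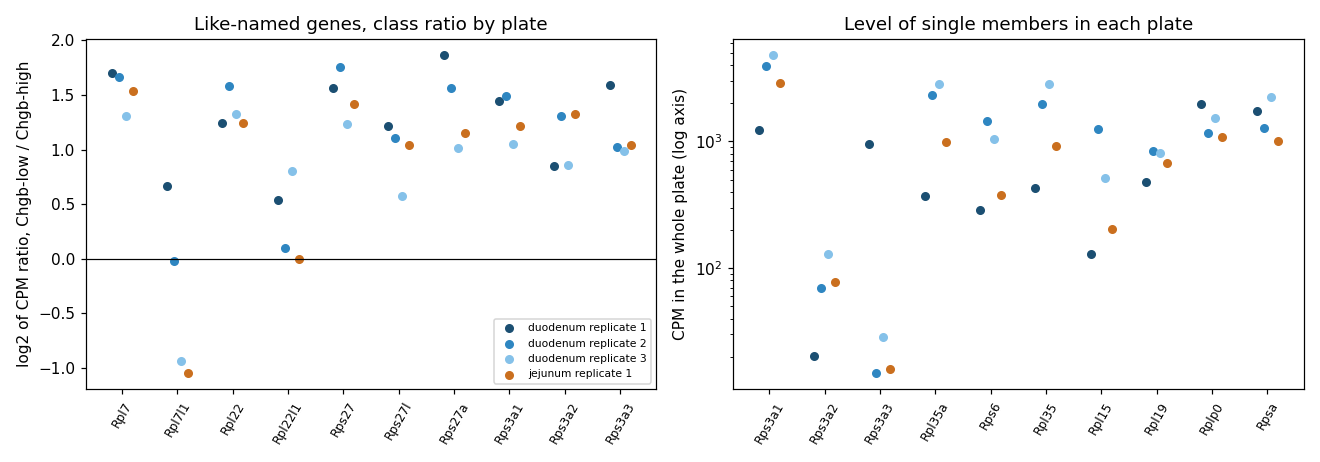
Left, log2 of the CPM ratio of Chgb-low to Chgb-high cells for members with like-named copies, 1 point per plate. Right, CPM of 10 members in each whole plate (log axis); Rpl7l1 lies on both sides of 0 in the left panel, and in the right panel Rps3a3 reaches 947 CPM in duodenum replicate 1 and is at most 28.5 CPM in the other plates.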

How the data were processed

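Counts were used as the authors deposited them, in 1 file that gives a whole number for each gene in each of 290 wells on 4 plates. Each plate received 92 sorted cells and 4 wells stayed empty, per the labels' protocols, and libraries were made with the BD Precise WTA kit from polyadenylated RNA. The submitters' processing notes name the build mm10 and bcl2fastq 2.17.1.14, cutadapt 1.10, Bowtie2 2.2.8, STAR 2.5.3a, UMI-tools 0.4.4 and HTSeq 0.6.1, with no role. The use of molecular indices, the strand setting and the filter on cells: not given in the sources used here. Columns were matched to plates by experiment number and pool number (0 unmatched). The mapping of tissue and age rests on that match.

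Gene symbols came from a table of Ensembl identifiers (29120 of 29161 matched), positions and biotypes from GENCODE M21 and starts from RefSeq (GRCm38.p6). CPM are counts scaled to a total of 1000000 per cell, class or plate. Class limits were Neurog3 at least 5 counts, Tph1 at least 200 CPM, any peptide hormone gene at least 1000 CPM and Chgb under 2000 CPM; the hormone limit was chosen here. A class needs at least 5 cells in a plate. No further cell filter and no doublet caller were applied, since wells received single sorted cells.

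Counts were summed per plate and class and tested with edgeR 4.0.16 (R 4.3.3). The settings were TMM, filterByExpr, quasi-likelihood test, plate as block and Benjamini-Hochberg over all genes tested, with a threshold of 0.05. Plates pair the classes because both classes of a plate share its sort and library. Whether they share a single animal is not given. Whole plates were tested without a block. DESeq2 1.42.0 was an alternative. The edgeR fit was also run on simulated data with independent genes and changes larger than any Chgb change of a member. That run does not bear on smaller changes or on genes that move together. Shares of counts got no test. Counts of genes at an unadjusted p are given without the share of all genes at that p. Alternatives covered the filter, block, class limits, library, thinning to 100000 counts, left-out plates, scaling by totals and restricted cells, the last 2 chosen after seeing the data.

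Genes were named by rule: Rplp0, Rplp1, Rplp2 and Rpsa, like-named copies and their partners, the up to 8 members of largest change among those called and alike in every plate (or the 5 of smallest p), the 5 members with most and fewest counts, and up to 4 genes of smallest p per other list. A gene that this rule names is not reported here. Rpl35a, Rps6, Rpl35 and Rpl15 in the plate comparison are those of smallest p. The Rps3a copies, Rpl4, Rpl19, Rpl26, Fau, Eef2 and the genes whose starts are shown were chosen after their values were seen. Members and lists were chosen with earlier results of these data known.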

Additional observations from a re-analysis of the deposited data

How the results depend on the processing

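Of the counts of members called, those for Neurog3-positive cells, peptide-hormone-high cells, Tph1-high against hormone cells and the jejunum were 0 under every alternative run. With the Chgb classes the count was 79, and 44 to 77 when a plate was left out; other settings gave 58 (without the replicate block) to 80 (DESeq2). With the Tph1 classes it was 59, 18 without the replicate block (plates pair the classes), 0 within Chgb-high cells, 45 to 80 under the other settings and 0 to 62 when a plate was left out. Apart from the scaling by totals below, the calls among all genes under these alternatives are not given here. The spread of these counts is therefore not read as a result about the members. For 39 against 12 weeks the count was 0, and 14 with DESeq2, 5 without the low-count filter and 1 with cells thinned to 100000 counts; the cause was not tested. The group of 39 weeks is 1 plate, and the calls among all genes in these age fits are not given here. The age counts are therefore not read as a result about the members. No paired analysis was possible for tissue or age because each plate holds 1 of the groups. Scaling by totals alone changed the split of all calls from 315 higher and 190 lower to 189 and 341 for Chgb, and from 80 and 149 to 98 and 98 for Tph1, and left 75 and 45 members called.

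The median log2 ratio of the share was 1.42 for Chgb-low cells (1.25 to 1.60 when a plate was left out) and -1.41 for Tph1-high cells (-1.62 to -1.21, and -0.45 within Chgb-high cells). It was -0.445 for hormone cells and -0.849 with stricter class limits. For Neurog3-positive cells it was 0.01, and negative in the library without secretory genes (-0.0306), among Chgb-low cells of duodenum replicates 2 and 3, the 2 plates with at least 5 such Neurog3-positive cells (-0.178; with all 4 plates the share was higher in 3), and without duodenum replicate 3 or the jejunum (-0.0756), the left-out range being -0.0756 to 0.0969. Rpl24, Rpl6l, Rpl32l, Rpl39l and Rps4l had too few counts for their changes to be read at this depth.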
